A study of Mus musculus with 2 samples.

Results

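The regions described here are the 247 Bcl3 peaks whose midpoint lay within 5 kb of a transcription start site (TSS) in CGR8 cells, out of 1130 peaks in all. They make up 21.9% of the peaks (exact 95% interval 19.5 to 24.4%). A peak was taken when the smallest absolute distance to a TSS, over all genes that the deposited annotation lists for it, was at most 5000 bp. Enrichment took no part in the choice. CGR8 is a mouse embryonic stem cell line, kept here on 0.1% gelatin in Glasgow medium with 15% serum replacement and leukemia inhibitory factor (LIF) at 1000 U/ml. Chromatin immunoprecipitation and sequencing (ChIP-seq) gave 1 library with an anti-Bcl3 antibody and 1 input library from cells grown the same way. No library from cells without Bcl3 and no control antibody was used here, and each group had 1 library. Every value below therefore describes 1 ChIP library, and its intervals cover counting error alone.

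Bcl3 is a nuclear member of the IκB family. It reaches DNA through partners, best known as homodimers of the NF-κB subunits p50 and p52, with which it can activate or repress transcription. A promoter is the stretch around a TSS where RNA polymerase II assembles. Many promoters of genes used in all cell types lie in CpG islands, stretches rich in unmethylated CG pairs, and a share of these drive a pair of genes that point away from each other. Such pairs are called head-to-head or divergent.

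The 247 peaks lay near the starts of 279 genes, of which 276 are protein coding in the RefSeq table, 1.26% of its 21900 protein-coding genes. The log2 fold enrichment, the authors' greatest value within each peak, ran from 2.50 to 3.95. Among the 10 peaks with the greatest fold, 7 had their midpoint 33 to 403 bp downstream of the TSS. The strongest was that of Nme1, a nucleoside diphosphate kinase gene, on chromosome 11 at 93829500 to 93829874 (mm9), with a log2 fold enrichment of 3.95 and its midpoint 147 bp downstream of the TSS. The peak of Dcp1a, which encodes an activator of mRNA decapping, followed at 3.89 on chromosome 14 at 31292700 to 31292999. Trim52, a tripartite-motif gene, had a peak of 3.83, 160 bp downstream of its TSS. The peaks of Pqlc1 (Slc66a2), a PQ-loop transporter gene, and D230025D16Rik had 3.78 and 3.77. Gtf3c6, which encodes a subunit of the RNA polymerase III factor TFIIIC, had a peak of 3.76 that lay 1004 bp upstream. Next came Acot8, a peroxisomal acyl-CoA thioesterase gene (3.72), Tead4, a transcription factor gene of the Hippo pathway (3.71), Kbtbd3 (3.70) and the retinoic acid receptor gene Rarg (3.70). All 10 had the lowest false discovery rate in the list, 0.179, a rate that follows the order of fold among these peaks.

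Promoter sequences are shown for 5 genes whose peak covered part of the promoter window and that belong to the strongest peaks or to the strongest head-to-head pairs. They run from 250 bp before to 50 bp after the TSS, in the direction of transcription, and come from RefSeq with positions in GRCm38.p6, not in the mm9 build of the peaks. Capitals mark matches, on either strand, to the motifs searched. The promoter of Dcp1a, with the peak 99 bp downstream of its TSS, holds an ETS motif (CCGGAAG) and a STAT3 motif (TTCNNNGAA).
Dcp1a, chr14:30479315-30479614, plus strand: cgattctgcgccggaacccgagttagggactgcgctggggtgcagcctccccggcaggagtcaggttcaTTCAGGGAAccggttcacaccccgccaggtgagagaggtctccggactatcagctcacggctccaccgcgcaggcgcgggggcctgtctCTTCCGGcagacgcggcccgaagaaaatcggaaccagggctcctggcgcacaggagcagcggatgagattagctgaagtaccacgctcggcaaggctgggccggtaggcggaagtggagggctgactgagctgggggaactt
The promoter of Trim52 holds a TATA-like stretch, a cyclic AMP response element (CRE, TGACGTCA) and GC boxes (GGGCGG).
Trim52, chr14:106105948-106106247, plus strand: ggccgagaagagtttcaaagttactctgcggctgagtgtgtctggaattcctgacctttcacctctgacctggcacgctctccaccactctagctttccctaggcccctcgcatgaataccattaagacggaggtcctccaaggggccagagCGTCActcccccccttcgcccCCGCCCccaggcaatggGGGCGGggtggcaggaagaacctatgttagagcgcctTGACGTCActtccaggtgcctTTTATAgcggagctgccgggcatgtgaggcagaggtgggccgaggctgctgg
The promoter of D230025D16Rik, where the peak midpoint lay 33 bp from the TSS, holds no match to any of the 14 motifs.
D230025D16Rik, chr8:105224937-105225236, plus strand: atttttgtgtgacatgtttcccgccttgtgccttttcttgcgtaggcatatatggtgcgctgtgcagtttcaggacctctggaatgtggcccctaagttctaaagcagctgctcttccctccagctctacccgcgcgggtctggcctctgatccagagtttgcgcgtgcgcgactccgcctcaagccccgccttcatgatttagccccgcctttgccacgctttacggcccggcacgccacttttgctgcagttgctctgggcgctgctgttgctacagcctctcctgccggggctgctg
The promoter of Prelid1, which lies head to head with Rab24, holds an E-box (CACGTG) that overlaps a short CRE (TGACG), followed by ETS motifs.
Prelid1, chr13:55321805-55322104, plus strand: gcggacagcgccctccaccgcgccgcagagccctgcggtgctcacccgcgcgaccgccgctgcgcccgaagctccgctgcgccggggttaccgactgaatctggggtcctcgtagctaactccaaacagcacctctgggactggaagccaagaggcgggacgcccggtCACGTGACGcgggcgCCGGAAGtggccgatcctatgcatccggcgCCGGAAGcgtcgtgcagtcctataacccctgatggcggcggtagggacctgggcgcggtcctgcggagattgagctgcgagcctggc
The promoter of Ndor1, head to head with C730025P13Rik (Tmem203), holds a GC box and short CREs.
Ndor1, chr2:25255365-25255664, minus strand: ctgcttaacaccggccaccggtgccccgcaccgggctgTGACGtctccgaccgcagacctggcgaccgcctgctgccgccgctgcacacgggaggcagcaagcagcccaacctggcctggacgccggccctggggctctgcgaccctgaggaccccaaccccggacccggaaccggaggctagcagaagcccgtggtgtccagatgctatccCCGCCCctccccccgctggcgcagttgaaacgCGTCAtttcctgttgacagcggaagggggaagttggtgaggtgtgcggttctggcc

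The peaks crowded around the start and lay more often past it than before it. Within 500 bp of the TSS lay 122 of the 247 peaks (49.4%, exact 95% interval 43.0 to 55.8%) and within 1 kb lay 162 (65.6%, 59.3 to 71.5%). The median distance was 509 bp (95% interval 403 to 699 bp). The density of peak midpoints was 212 per kb in the 250 bp after the TSS and 92.0 per kb in the 250 bp before it. It was 108 per kb at 250 to 500 bp downstream and 76.0 per kb at the same distance upstream. Beyond 2 kb it was 12.0 per kb downstream and 7.33 per kb upstream. Within 250 bp of a TSS, 53 of 76 peaks lay downstream (69.7%, 58.1 to 79.8%), against 115 of 189 within 2 kb (60.8%, 53.5 to 67.8%). The interval of the first value overlaps that of the second, and the smaller window is part of the larger one. Over the whole window 61.1% of the peaks lay downstream, and 58.0% of the peaks near a single gene start.

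**Figure D1:**
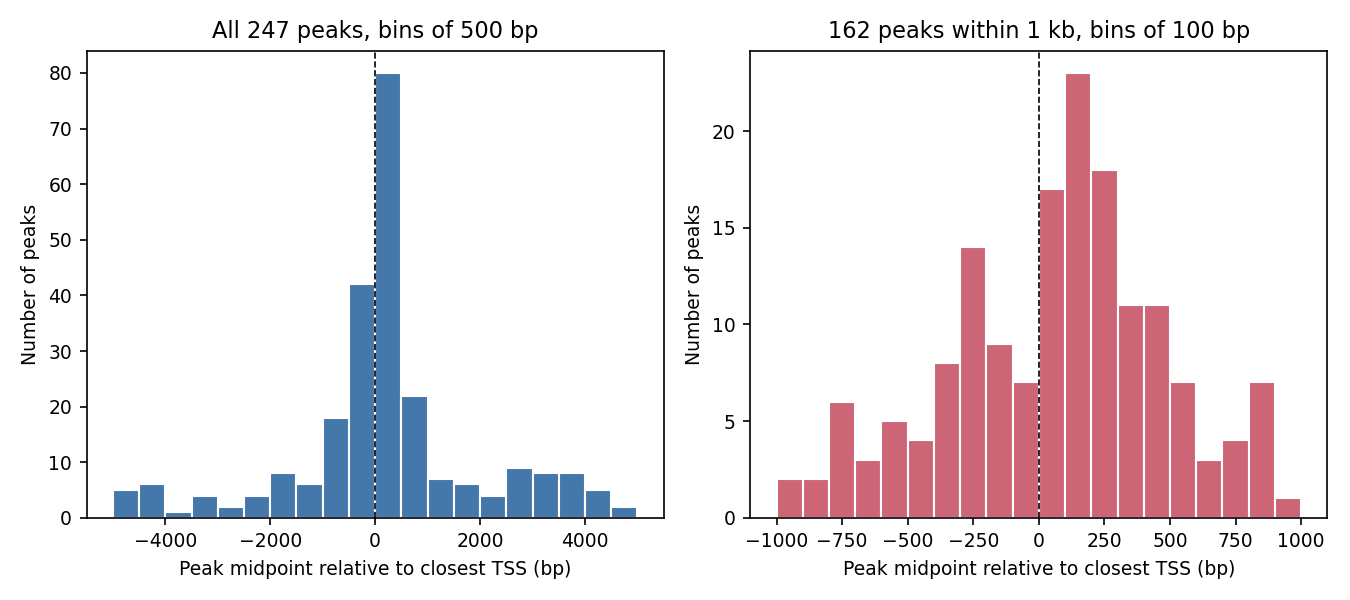
Number of Bcl3 peaks by the position of the peak midpoint relative to the closest TSS, for all 247 peaks in bins of 500 bp (left) and for the 162 peaks within 1 kb in bins of 100 bp (right); negative positions are upstream and the dashed line is the TSS. The 500 bp after the TSS hold 80 peaks, more than any other bin of the left panel.

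The side did not depend on how a peak's position was taken in most cases, since summit and midpoint lay on the same side of the TSS in 240 of 247 peaks (97.2%). Most peaks did not reach the TSS itself. Only 33 peak intervals (13.4%, exact 95% interval 9.38 to 18.2%) included the closest listed start, with a median peak length of 250 bp. The closest peaks were those of 1110031B06Rik (Snap47), a SNARE protein gene, and Trim25, an E3 ligase gene of antiviral signalling, each with the midpoint 8 bp downstream. Ndor1, a diflavin reductase gene of cytosolic iron-sulfur assembly, had its midpoint 9 bp downstream. The midpoint lay 18 bp upstream for Aldh1a2, which makes retinoic acid, and 20 bp downstream for Ier3ip1. Their log2 fold enrichments were 3.18, 2.89, 3.57, 3.50 and 2.68 in that order.

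At the outer edge of the window the last peaks inside were those of Mds1, at 4866 bp, 0910001A06Rik, at 4878 bp, and Morn3, at 4946 bp, all upstream. The first left out were those of Cst11, at 5017 bp, Zbtb34, at 5119 bp, and Olfr670, at 5169 bp, also upstream. Their log2 fold enrichments were 3.33, 3.50 and 2.53 inside and 2.98, 2.71 and 3.23 outside.

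Within genes, the peaks sat mainly in the first exon and the first intron. The choice of peaks near a TSS itself favours these parts. No expected share was worked out, so whether the peaks prefer these parts was not tested. By the deposited classes, 96 peaks (38.9%) lay upstream of the closest gene and 57 (23.1%) between its TSS and the start of its coding sequence. A further 54 (21.9%) lay in other introns, 23 (9.31%) in coding exons, 4 (1.62%) in the 3′ UTR and 13 (5.26%) past the end of a short gene. In all, 138 peaks (55.9%, exact 95% interval 49.4 to 62.2%) lay inside the closest gene. The class the authors' table calls 5′ UTR includes introns: of its 56 peaks whose listed transcript belonged to the same gene, 26 lay in an exon and 30 in an intron.

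Exon and intron numbers could be given where the deposited closest transcript belonged to the same gene, which held for 231 of 247 peaks. In 144 of these the midpoint lay inside the transcript, and 115 of the 144 (79.9%, exact 95% interval 72.4 to 86.1%) were in exon 1 or intron 1. Intron 1 held 70 (48.6%, 40.2 to 57.1%) and exon 1 held 45 (31.2%, 23.8 to 39.5%). Later introns held 18 and later exons 11. Exon 1 held the peak midpoints of Nme1, Dcp1a, Trim52, D230025D16Rik and Tead4. Intron 1 held those of Kbtbd3, of the cyclin-dependent kinase gene Cdk4, 316 bp from the TSS, and of the translation elongation factor gene Eef1a1, at 206 bp. The listed transcripts can start at different sites: 8 of 83 peaks called upstream by the wider annotation lay inside the transcript that the other sheet gives for the same gene. The peak of Rarg was one of these, 542 bp upstream of one listed start and in intron 3 of the other transcript.

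Median enrichment differed little with the distance from the TSS. The median log2 fold enrichment was 2.95 (95% interval 2.90 to 3.05) for these 247 peaks and 2.93 (2.89 to 2.95) for the 883 others. Upstream peaks had a median of 2.96 and downstream peaks one of 2.94. By distance the highest medians were found at 1 to 2 kb, with 3.26 upstream (14 peaks) and 3.25 downstream (13 peaks), and not at the TSS, where the 53 peaks of the first 250 bp had 2.90. Peaks near starts were somewhat longer, with a median of 250 bp (225 to 250 bp) against 200 bp (200 to 225 bp). More of them had the lowest false discovery rate of the list, 74 of 247 (30.0%, exact 95% interval 24.3 to 36.1%). Among the others it was 164 of 883 (18.6%, 16.1 to 21.3%). Across the 247 peaks this rate follows the order of fold, so the share is another reading of fold and not a separate trait. The upper quartile of log2 fold enrichment was 3.37 for the 247 peaks and 3.21 for the others. Since false discovery rates were high throughout, up to 0.617 here with a median of 0.296, single peaks are uncertain.

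**Figure D2:**
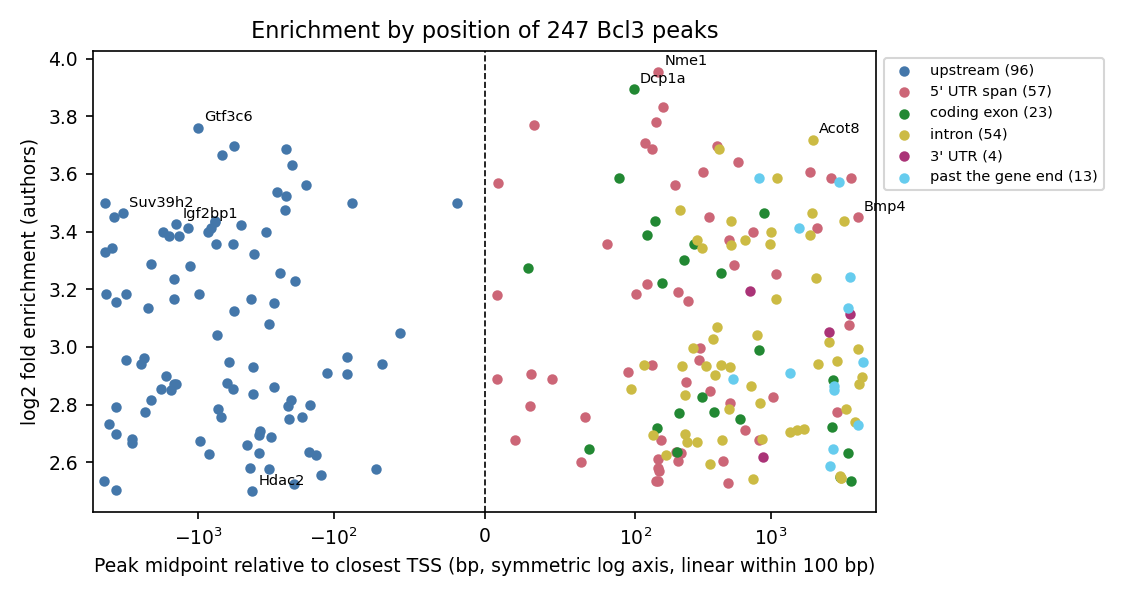
The authors' log2 fold enrichment of each of the 247 peaks (vertical axis) against the position of its midpoint relative to the closest TSS (horizontal axis, symmetric log scale, linear within 100 bp); colours give the deposited location class and labels mark named genes. Log2 values run from 2.50 to 3.76 upstream and reach 3.95 downstream, and Nme1 and Dcp1a at the top lie 147 and 99 bp downstream.

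The Poisson score, the authors' −log10 of the smallest Poisson p-value in a peak, put other genes first. The highest was 21.9 for Igf2bp1, an RNA-binding protein gene of embryonic and cancer cells, with the peak 1449 bp upstream and a log2 fold enrichment of 3.42. The linker histone gene Hist1h1d had scores of 14.7 and 12.5 at its peaks 872 and 310 bp downstream, and Hist1h1c had 13.9 at 699 bp downstream. Hdac2, a histone deacetylase gene, had a score of 12.3 at 400 bp upstream, with the lowest fold of all 247 peaks, 2.50, and a false discovery rate of 0.617. The median score of the 247 peaks was 5.86 and that of the others 5.78.

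Head-to-head gene pairs carried 19 of the peaks (7.69%, exact 95% interval 4.69 to 11.8%). A pair was counted when 2 genes on opposite strands pointed away from each other with starts at most 1000 bp apart and the peak within 5 kb of both. By genes, 38 of the 279 genes (13.6%, 9.82 to 18.2%) were in such a pair with a peak, whereas 7.6% of the 8969 genes of the wider annotation are in a pair of this kind. Since a peak at a pair counts both its genes, loci are the fairer unit. Of the 240 loci closest to these peaks 18 were pairs (7.5%, 4.51 to 11.6%), against 322 of 8387 other listed loci (3.84%, 3.44 to 4.27%).

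At none of the 19 pairs did the peak midpoint fall between the starts, which were 24 to 445 bp apart with a median of 142 bp. In 10 it lay downstream of the start of the left gene and in 9 downstream of that of the right one. At Hist1h2bl and Hist1h2an it lay past the end of the short gene. Outside the gap a midpoint is always downstream of the nearer start, so the downstream side follows from the layout of a pair. In 16 it lay within 1 kb of the closer start. At 3 pairs the peak covered both starts. These were Rab24, a GTPase gene of autophagy, with Prelid1, a mitochondrial lipid transfer gene (log2 fold enrichment 3.69, starts 75 bp apart), Ndor1 with C730025P13Rik (Tmem203; 3.57, 25 bp apart), and 1110031B06Rik (Snap47) with the hydroxylase gene Jmjd4 (3.18, 132 bp apart). The strongest peak at a pair, that of Acot8 and Zswim3 (3.72), lay 2047 bp inside Acot8. The peak of Aasdhppt, a phosphopantetheinyl transferase gene, and Kbtbd3 (3.70) lay 403 bp inside Kbtbd3. At Lyrm4, a gene of mitochondrial iron-sulfur assembly, and Fars2, the mitochondrial phenylalanyl-tRNA synthetase gene, the starts are 54 bp apart and the peak (3.64) lay 570 bp inside Fars2.

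The other pairs among the 10 strongest were Hist1h2bl with Hist1h2ai (3.58), Hrsp12 (Rida) with Pop1, a ribonuclease P subunit gene (2.99), Adam9, a membrane protease gene, with Tm2d2 (2.93), and Hist1h2an with Hist1h2bp (2.89). At Hrsp12 and Pop1 the peak lay 4388 bp inside Pop1, so it was far from the shared promoter. The median log2 fold enrichment was 2.89 at pairs and 2.95 elsewhere.

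**Figure D3:**
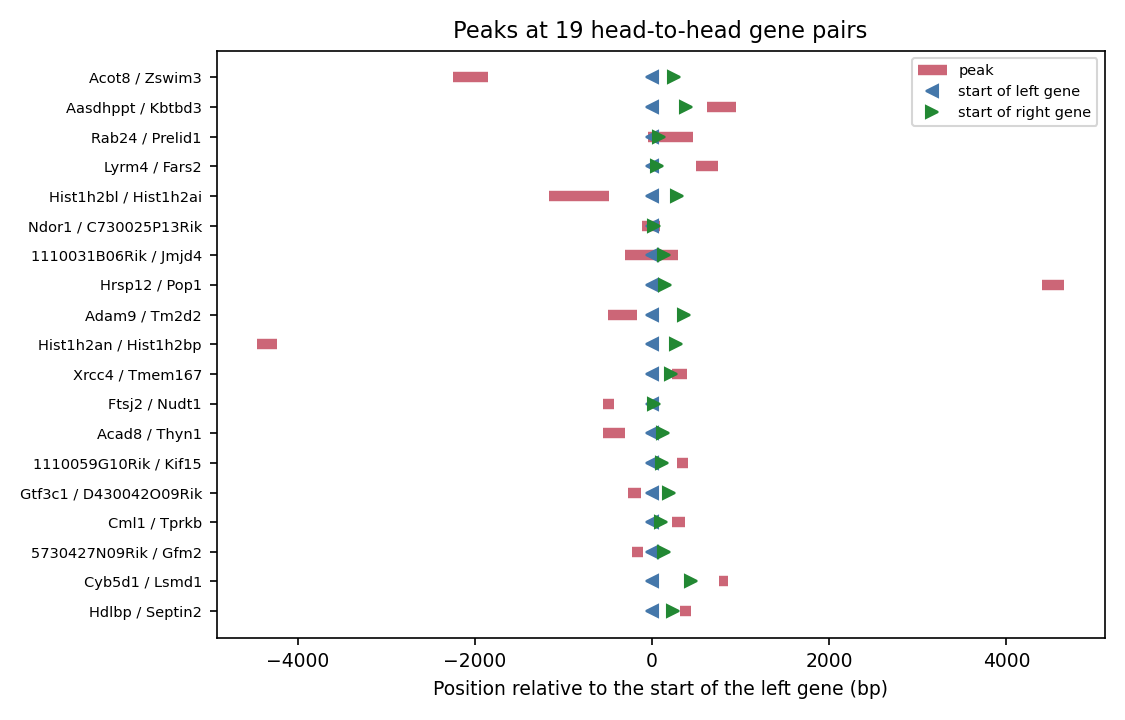
Position of the peak interval (bars) relative to the start of the left gene in bp, for the 19 head-to-head pairs in order of fold enrichment from the top; triangles mark both starts and point in the direction of transcription. Bars at Rab24 and Prelid1, Ndor1 and C730025P13Rik, and 1110031B06Rik and Jmjd4 span both starts, and those of Acot8, Hrsp12 and Hist1h2an lie beyond 2 kb.

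Of the 279 genes, 173 were put into 18 classes by the known role of the gene, from its symbol alone. Over all 279 genes, 180 (64.5%, exact 95% interval 58.6 to 70.1%) had a peak within 1 kb of the TSS, and over the 106 genes in no class 69 (65.1%). The counts within 1 kb take any peak of a gene, and distances given for a class are those of each gene's strongest peak. The classes differed in how close the peaks lay. Counts are small, peaks of neighbouring genes are shared, and the classes were made with earlier results known, so the values describe these genes and are no test.

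The highest shares of genes with a near peak were found in the classes of cell cycle, traffic, mRNA processing, mitochondrial translation and chaperone genes. Among cell cycle, replication and repair genes 10 of 11 had a peak within 1 kb. They included Rmi1, of the complex that dissolves DNA junctions (log2 fold enrichment 3.66, 666 bp upstream), Cdk4 (3.61), Anapc5, of the anaphase-promoting complex (3.36, 273 bp downstream), Cdca7l (2.94), Cdca7 (2.90) and the cyclin E gene Ccne1 (2.86). Membrane traffic, nuclear transport and cytoskeleton genes had 10 of 11 within 1 kb, among them Rab24, the exportin gene Xpo6 (3.40), the microtubule destabiliser Stmn1 (3.36) and Pafah1b1, of dynein regulation (3.28). Genes for mRNA processing had 11 of 13. Beside Dcp1a these were led by Hnrpk (Hnrnpk), a pre-mRNA binding protein gene whose peak at 914 bp downstream (3.66) is also that of Rmi1. Igf2bp1 was at 3.42, the splicing kinase gene Clk1 at 3.40 and Rbm25 at 3.37. All 5 genes of mitochondrial translation and protein assembly lay within 1 kb, including the ribosomal protein genes Mrpl44 (3.22) and Mrps14 (2.83), and so did all 3 chaperone genes, Dnajc14, Dnaja1 and Hspa4 (2.54 to 2.63).

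Ubiquitin, SUMO and NEDD8 genes had 8 of 11 within 1 kb, led by Herpud2 (3.50, 88 bp upstream) and the polyubiquitin gene Ubb (3.43, 756 bp upstream). The peak listed for Marchf9 (3.61), 3735 bp upstream of it, is that of Cdk4. These genes also held the SUMO-activating subunit gene Uba2 (2.93, 498 bp downstream). Chromatin regulators had 8 of 12, with Tbl1xr1, of the NCoR corepressor (3.69, 224 bp upstream), the H3K9 methyltransferase gene Suv39h2 (3.46, 3578 bp upstream), the deubiquitinase gene Usp22 of the SAGA complex (3.35) and the chromobox genes Cbx1 (3.08) and Cbx7 (2.90), whose peaks lay 3738 and 4663 bp downstream. Receptors and signal transducers had 7 of 10, led by the kinase gene Frap1 (Mtor; 3.48, 228 bp upstream) and Lrp1 (3.36). Metabolic genes had 10 of 15, with Nme1, Acot8, Ndor1, Aldh1a2, Pcbd2 (3.37) and Naprt1 (3.24) the strongest. Ribosome assembly genes had 4 of 5, among them the snoRNP gene Nol5a (Nop56; 3.30, 227 bp downstream) and the rRNA methyltransferase gene Nol1 (Nop2; 3.26, 251 bp upstream).

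The classes of transcription factors and of growth factors had fewer near peaks. So had histones, with 9 of 18 genes within 1 kb, and olfactory receptors, with 2 of 6. Of 27 sequence-specific transcription factor genes 10 (37.0%) had a peak within 1 kb, and the median distance was 1651 bp. Tead4 and Rarg were near, as was Foxn2 (3.52, 227 bp upstream) and the mesodermal factor gene Twist1 (3.46, 889 bp downstream). Axud1 (Csrnp1) had its strongest peak 1938 bp downstream (3.61) and another 262 bp upstream (3.54), and Tfdp2, of the E2F complex, had one 3883 bp downstream (3.58). Of 9 growth factor, morphogen and guidance genes 2 (22.2%) had a peak within 1 kb, and 8 of the 9 peaks lay downstream. Bmp4 had its peak 4374 bp downstream (3.45), Gpr177 (Wls), which carries Wnt proteins to the surface, 1091 bp (3.17), Wnt5a 3591 bp (2.78), Pdgfb 4163 bp (2.74) and Slit2 1556 bp (2.71). Vegfa was the gene with an upstream peak, at 412 bp (2.58). Those of Bmp4, Gpr177, Wnt5a, Pdgfb and Slit2 lay in introns. Of the transcription factor genes 15 of 27 had the strongest peak upstream, as did 8 of 12 chromatin regulators and 6 of 10 receptors and signal transducers, whereas 155 of all 279 genes had it downstream.

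**Figure D4:**
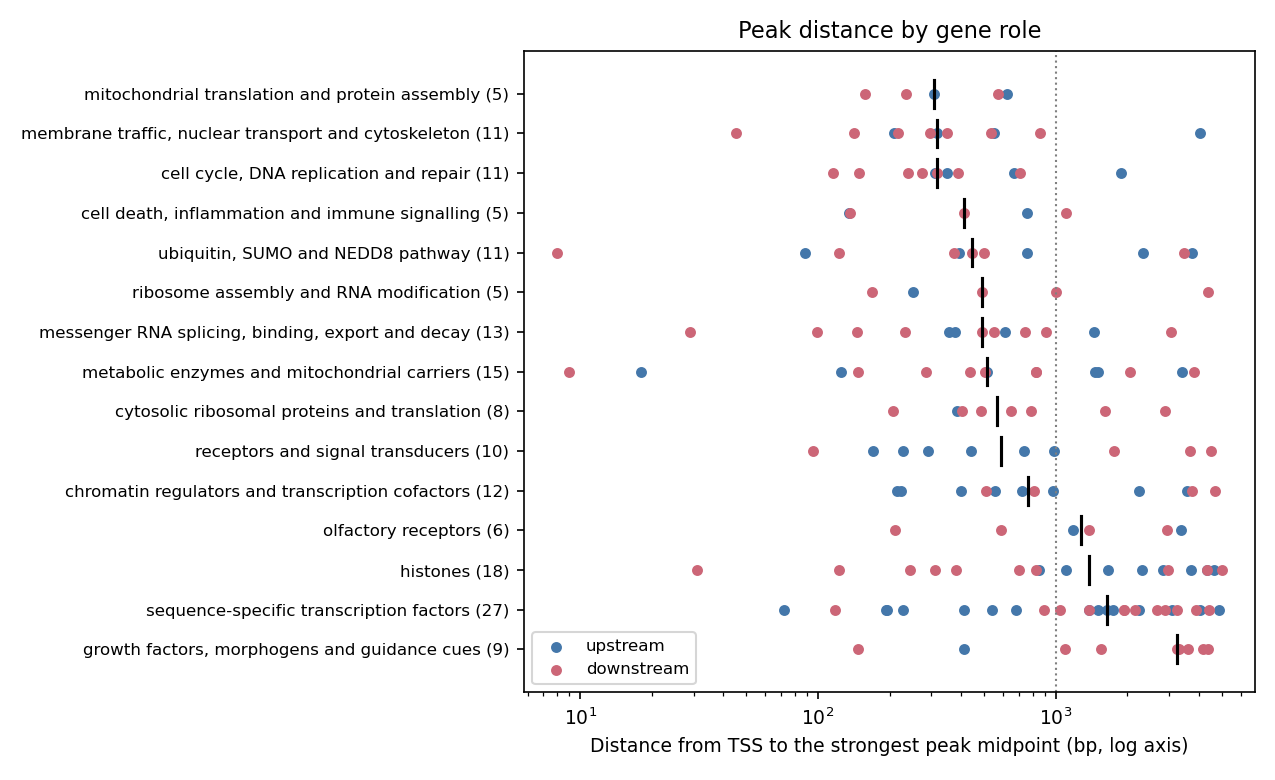
Absolute distance of each gene's strongest peak from its TSS in bp (log axis), by role class for classes of at least 5 genes, in order of the median (black bar), with the number of genes in brackets; colours give the side and the dotted line is 1 kb. Medians run from 307 bp for mitochondrial translation genes to 3241 bp for growth factors and morphogens.

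The remaining classes were mixed. Cell death and immune genes numbered 5, with Cd83, a dendritic cell surface protein gene (3.69, 412 bp downstream), the apoptosis effector gene Bax (3.58, 1105 bp downstream), the cytokine gene Il1a (3.44, 755 bp upstream), Tollip (2.69) and the kinase gene Tbk1 (2.62, 135 bp upstream). The general transcription factor genes were Gtf3c6, Gtf2a1 (3.18) and Gtf3c1 (2.64). Dppa5a, a marker of pluripotent cells, had a peak 3723 bp downstream (3.14), past the gene's end. Olfactory receptor genes numbered 6, led by Olfr49 (3.41, 1182 bp upstream), and 2 of them had a peak within 1 kb.

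Counted over whole families, the 1.26% of protein-coding genes with a peak is the level to read against. Of 71 histone genes 18 had a peak within 5 kb (25.4%), but they shared only 9 peaks. Of the 18, 17 are Hist1 genes on chromosome 13. The whole of that chromosome held 23 of the 247 peaks. The remaining one was H3f3b, a replacement histone gene (3.16, 243 bp downstream). Of 84 cytosolic ribosomal protein genes 7 had a peak (8.33%), Rps20 (3.41), Rpl31 (3.37), Rps27a (3.32), Rpl5 (3.07) and Rps3a (3.04) ahead of Rps15 and Rps15a. With Eef1a1, 7 of 8 genes of this class had the strongest peak downstream. Those of Rps20 and Rps15 lay past the gene's end. Many histone and ribosomal protein sequences have close copies in the genome, and how reads that match several places were handled is not given in the labels or files.

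The core and naive pluripotency lists had 2 of 20 genes each (10%). Dppa5a (3.14, past the gene's end) and the zinc finger gene Zfp42 (2.82, 1038 bp downstream) were those of the core list. Zfp42 and Klf2 (2.73, 4418 bp downstream, past the gene's end) were those of the naive list. None of these peaks lay within 1 kb, and the lists share Zfp42.

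General transcription factor and polymerase genes, taken by symbol, had 4 of 75 (5.33%). These 4 include Gtf2ird2, which is not among the general transcription factor genes named above. Heat shock genes had 3 of 80 (3.75%). Sox, Fox, Gata and Tbx genes had 3 of 82 (3.66%), with Foxn2, Sox17 (3.23) and Foxa1 (2.55). Homeobox genes had 3 of 91 (3.3%), with Nkx2-5 (3.17), Six2 (2.89) and Nkx2-2 (2.67). Zinc finger genes named Zfp had 4 of 397 (1.01%), among them Zfp385b (3.63, 202 bp upstream), solute carriers 3 of 375 (0.8%) and olfactory and vomeronasal receptors 6 of 1465 (0.41%). Respiratory chain genes had 0 of 96, proteasome genes 0 of 51, Mediator genes 0 of 30 and replication licensing and polymerase genes 0 of 28. Of 14 NF-κB subunit and IκB genes and of 25 genes listed as NF-κB targets none had a peak within 5 kb. At the background share fewer than 1 gene would be found in lists of that size. The target list is a selection. It does not hold the immune genes Il1a and Cd83, which had peaks, so the result covers the listed genes only.

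Several peaks at 1 gene were found for 9 genes. Axud1 (Csrnp1) had 3, and the other 8 had 2 each. Ubb had peaks 756 bp upstream (3.43) and 132 bp downstream (2.94), and Rps27a, whose product is a fusion of ubiquitin and a ribosomal protein, had peaks 385 bp upstream (3.32) and 302 bp downstream (3.00), so that the start lay between the peaks in both. Herpud2 had peaks 4288 and 88 bp upstream (3.34 and 3.50). Nol5a had peaks 227 and 1002 bp downstream (3.30 and 3.40). The remaining ones were the histone genes Hist1h1b, Hist1h1d, Hist1h3i and Hist1h4f, where neighbouring genes are counted with the same peaks.

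Promoters of the genes were richer in CpG pairs than promoters in general, and this held for genes with a near peak. The RefSeq promoter table listed 222 of the 279 genes, and 184 protein-coding genes with a single listed promoter were compared with all 14731 of that kind. The median ratio of observed to expected CpG in the 300 bp window was 0.791 (95% interval 0.746 to 0.833) for the 184 genes and 0.559 (0.546 to 0.571) for all. It was 0.812 (0.780 to 0.857) for 122 genes with a peak within 1 kb and 0.718 (0.460 to 0.824) for 62 genes with peaks at 1 to 5 kb only. Other genes that the annotation lists around the 1130 peaks had 0.658 (0.645 to 0.673). CpG-rich promoters, with a ratio of at least 0.6 and a GC content of at least 55%, made up 71.3% of those with a near peak (exact 95% interval 62.4 to 79.1%), 40.3% of those with only a farther peak (28.1 to 53.6%) and 40.2% of all.

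**Figure D5:**
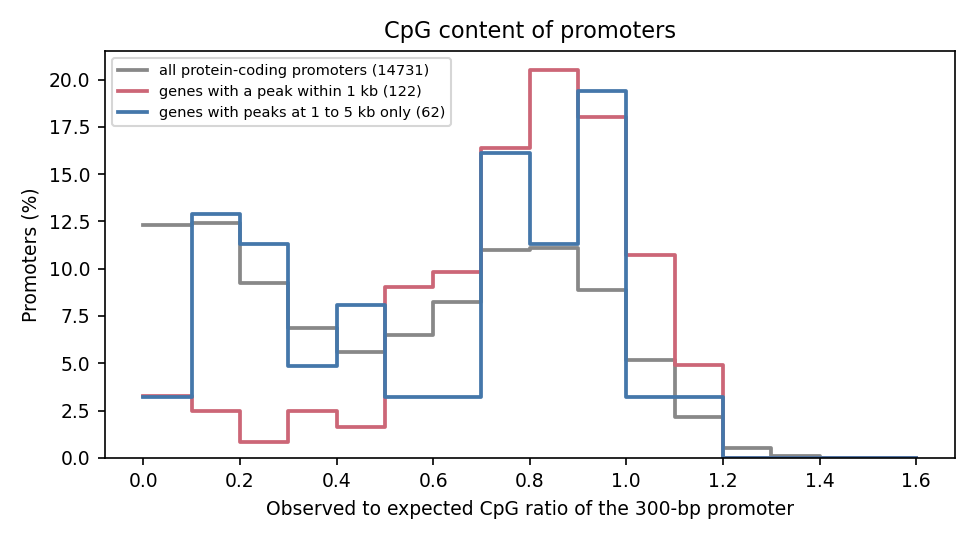
Distribution of the ratio of observed to expected CpG in 300 bp promoters (horizontal axis, bins of 0.1) as percent of promoters, for all 14731 protein-coding promoters, 122 of genes with a peak within 1 kb and 62 of genes with peaks at 1 to 5 kb only. The near-peak promoters lie mostly above 0.5 (median 0.812), whereas the farther-peak promoters have values both below 0.5 and above 0.7, like all promoters.

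The GC box was no more frequent than in other promoters once CpG-rich promoters were compared with each other. The ETS motif and the E-box had higher shares where a peak lay over the promoter, with wide intervals. The GC box was in 58.7% of the 184 promoters (exact 95% interval 51.2 to 65.9%) and in 45.3% of all, but among CpG-rich promoters in 75.9% (66.9 to 83.5%) and 80.2%. The ETS motif was in 16.8% (11.7 to 23.1%) and 11.8% of all. Where the peak lay over the promoter window, as at 48 of the 184 genes, it was in 31.2% (18.7 to 46.3%). Among the 37 CpG-rich promoters of these it was in 35.1% (20.2 to 52.5%), against 20.1% of all 5929 CpG-rich promoters. The E-box was in 11.4% (7.21 to 16.9%) and 7.72% of all. With the peak over the window it was in 22.9% (12.0 to 37.3%), and among the CpG-rich ones in 27.0% (13.8 to 44.1%), against 11.7% of all CpG-rich promoters. The interval for the E-box lies above the share in all CpG-rich promoters. That for the ETS motif does so only by its lower end of 20.2% against 20.1%. The intervals are not adjusted for the 14 motifs and the several sets searched. Nor do they allow for head-to-head genes, whose windows can overlap so that 1 stretch of sequence stands for both promoters. The windows of Prelid1 and Rab24 overlap and hold the same ETS motifs and the same E-box. The excess of the ETS motif and that of the E-box are therefore not secure.

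The motif of NF-κB itself was not more frequent. The κB motif was in 5.98% of the 184 promoters (exact 95% interval 3.02 to 10.4%) and in 8.69% of all, and in 6.25% (1.31 to 17.2%) where the peak lay over the window. The STAT3 motif, the target of the factor that LIF activates, was in 3.8% (1.54 to 7.68%) and 7.86% of all, but among CpG-rich promoters in 4.46% (1.47 to 10.1%) and 4.91%. The TATA box (TATAAA) was in 13.0% and 14.3%, and in 6.25% (1.31 to 17.2%) where the peak lay over the window. The CCAAT box (CCAAT) was in 42.9% and 39.6%. It was in 31.2% (18.7 to 46.3%) where the peak lay over the window and in 56.5% (43.3 to 69.0%) of promoters with peaks at 1 to 5 kb only. The short CRE was in 30.4% (23.9 to 37.6%) and 23.4%, but among CpG-rich promoters in 39.3% (30.2 to 49.0%) and 36.3%. All were searched on both strands in the promoter window and not in the peaks, so they say nothing of the sequence under a peak that lies elsewhere, and a match is not a binding site.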

How the data were processed

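Peaks came from 1 ChIP-seq library with anti-Bcl3 and the deposited workbook of its 1130 peaks. No file of the input library was used. Positions refer to build mm9 (per the submitters' processing notes). Which aligner and peak caller were used, and how the input entered, is not stated in the labels or headers. The read depth is unknown. Per the file headers, each peak carries the greatest log2 fold change (no denominator is named), a T score that was not used, a false discovery rate read as a q-value, and the −log10 of the smallest Poisson p-value. Signed distances run from the peak midpoint to the TSS of up to 21 RefSeq genes, in the deposited wider annotation. Exon and intron numbers were taken at the midpoint, from the deposited closest transcripts.

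From these files, the peaks within 5000 bp of a TSS were selected and gene symbols were looked up in the GRCm38.p6 gene table of RefSeq, for names and gene class only (278 of 279 genes). Shares carry exact Clopper-Pearson 95% intervals and medians carry binomial order-statistic intervals. With 1 library and no replicate no test was run, and the spread between libraries is unknown. Named were the 10 peaks of greatest fold, the 5 of greatest Poisson score, the 5 closest to a TSS, the 3 on each side of 5000 bp, genes with several peaks, the 10 strongest head-to-head pairs, and up to 5 genes per family and 6 per role by fold. The members and lists were chosen with earlier results of these data known. Motifs were searched in promoters of GRCm38.p6. Peak sequences were not used here, since they need an mm9 genome. Alternatives were other windows, peaks at the lowest false discovery rate, the peaks above the median fold or Poisson score, and merging of peaks within 1000 bp. Intervals and pair counts were tested on simulated data. Python 3.11.15, pandas 2.3.3, numpy 2.4.6 and scipy 1.17.1 were used.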

Additional observations from a re-analysis of the deposited data

How the results depend on the processing

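No paired analysis was possible because there was 1 ChIP library and no result comes from a test, and no replicate could be left out. The share of peaks in the window was 14.3% at 1000 bp, 16.7% at 2000 bp, 28.8% at 10000 bp and 31.1% among peaks at the lowest false discovery rate. The share within 500 bp was 75.3%, 64.6% and 37.5% for windows of 1000, 2000 and 10000 bp, as smaller windows drop the farther peaks. The number of peaks near starts was 162 at 1000 bp, 74 at the lowest false discovery rate, 132 among peaks above the median fold and 130 among peaks above the median Poisson score. The median log2 fold enrichment was 3.46 at the lowest false discovery rate, where the median length was 325 bp. The median length was 300 bp among peaks above the median fold, of which 56.1% had that rate. Since the rate follows the order of fold, the 3.46 and the 56.1% come from the choice of peaks. The share in intron 1 was 40.0% at the lowest false discovery rate and 57.9% among peaks above the median Poisson score. Families with a gene numbered 12 of the 19 at the lowest false discovery rate and among peaks above the median Poisson score. These subsets hold fewer peaks by construction. No other main value moved by more than its interval or, for counts, by over 1.5 times, the downstream share and the share at pairs included. For single families and motifs, 68 comparisons moved by this measure and 176 did not. Histone genes with a peak went from 18 to 9 at 1000 bp, but numbered 14 among peaks above the median Poisson score. Cytosolic ribosomal protein genes went from 7 to 2 among the latter. No core or naive pluripotency gene was left at the lowest false discovery rate. With no replicate and unknown depth, a missing peak is not shown to be absent.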
